A study of Gallus gallus with 17 samples.

Results

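Expression that sets the Fayoumi chicken apart from broiler and Leghorn birds was read from 17 Affymetrix arrays of adipose tissue, each from a sample of male chickens aged 3 weeks. The lines were Fayoumi M 5.1 (5 arrays), a broiler line (6 arrays) and Leghorn GHs 13 (6 arrays). Fayoumi is an Egyptian breed of light birds, broilers are bred for meat, and Leghorns are layers. The Fayoumi and Leghorn lines are highly inbred, so the birds of each line share most of their alleles. Per the labels the replicates within a line are biological, and no treatment is named.

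Fayoumi-private expression was defined probe set by probe set. Each probe set reads a stretch of a transcript through several short probes, and a gene can have more than 1 probe set. A probe set counted as Fayoumi-private when all 5 Fayoumi arrays lay above, or all 5 below, every one of the 12 broiler and Leghorn arrays. Exchanging labels between broiler and Leghorn leaves this contrast as it is. Of 37693 chicken probe sets, 503 met the rule, which is 1.33%: 274 were higher in Fayoumi (0.727%) and 229 were lower (0.608%). They carried 367 named genes, and 105 of them carried no single gene symbol. Values are the authors' deposited log2 expression levels, where a step of 1 is a doubling. Background was 2.29, the 95th percentile of 80 probe sets that match no chicken transcript, and the lowest value in the table was 2.26. Levels of different probe sets are not comparable with each other.

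Adipose tissue stores triglyceride in adipocytes and releases it by lipolysis, and it also holds endothelial cells, macrophages, lymphocytes and progenitors. A level measured in the whole tissue joins all of these: fewer cells of a type and less RNA per cell cannot be told apart. The adipocyte genes were strongly expressed in every line. FABP4, the fatty acid carrier of adipocytes, averaged 16.12 ± 0.04 in Fayoumi and 15.99 ± 0.15 in the others (SD, n = 5 and 12). PLIN1, which coats the lipid droplet, averaged 14.13 ± 0.16 in Fayoumi and 13.96 ± 0.47 in the others. Neither passed the test (adjusted p 0.581 and 0.864).

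The arrays differed in ways that the lines do not explain. Along the first principal component of the 19345 probe sets above background everywhere, which took 52.9% of the variance, broiler 2, 3 and 4 and Leghorn 3 and 6 stood apart, and no Fayoumi array did. On the second component the array labelled broiler 1 lay among Leghorn scores and the array labelled Leghorn 2 among broiler scores. Leghorn 1 had a 3′ minus 5′ GAPDH signal of 0.10, whereas the Fayoumi arrays had 1.19 to 1.46 and the remaining broiler and Leghorn arrays 0.93 to 1.45. The same measure for ACTB, which follows RNA breakdown, ran from 1.98 to 2.70 in Fayoumi and from 1.49 to 2.45 in the others, and its part in the results was not tested. With broiler 1 and Leghorn 2 left out, 665 probe sets were Fayoumi-private (1.76%). Without the 5 arrays that stood apart the count was 1029 (2.73%). Having fewer arrays to clear cannot lower the count, and the part of the spread that these 5 arrays added was not tested.

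The linear model of limma, fitted to the same contrast over all 37693 probe sets, gave an adjusted p under 0.05 for 394 (1.05%), with 200 higher (0.531%) and 194 lower (0.515%) in Fayoumi. Of the 503 Fayoumi-private probe sets, 268 passed that test (0.711% of all), 136 of them higher (0.361%) and 132 lower (0.35%). The remaining 235 cleared the other arrays without passing it. The distance between the nearest Fayoumi array and the nearest other array had a median of 0.16 over the 503 and reached 1 or more in 39 (20 higher, 19 lower) and 2 or more in 11. The median size of the difference was 1.08 over the 503, which the rule favours, and 0.058 over all probe sets. At the edge of the rule GGH, which trims glutamates from folates, cleared the other arrays by 0.00083, whereas SMAP2 missed by 0.00021. With 1 array left out at a time, the difference of each of the 59 called probe sets in the set of named genes stayed between 0.78 and 1.18 times its value with all arrays, so that calls lost that way were lost at a similar difference. Limma called 254 probe sets without Fayoumi 1, 247 without Fayoumi 2, 259 without Fayoumi 3 and 235 without Fayoumi 4.

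The 8 largest rises in Fayoumi among the called genes included a relative of a cytokine enzyme, an immune ligand and receptors for Wnt and secretin. DDTL, a relative of D-dopachrome tautomerase in the MIF cytokine family, read 8.62, 8.42, 8.30, 8.23 and 8.34 in Fayoumi, against a lowest of 2.54, a median of 3.14 and a highest of 3.72 in the others. The arrays fell into separate ranges with nothing between. The difference was 5.32 ± 0.16 (log2, SE), a 39.9-fold higher level (adjusted p = 6.64e-12). HHLA2, a ligand of the B7 family that acts on T cells, read 6.84, 5.93, 6.54, 6.82 and 6.36 in Fayoumi, against 2.68, 3.17 and 4.83 as lowest, median and highest of the others. Since 7 of the 12 others had a value tied with another array, no fold is given, and the difference was 3.22 ± 0.31 (adjusted p = 2.89e-05). FZD6, a Frizzled receptor for Wnt proteins, read 7.75, 8.23, 8.54, 8.43 and 8.24 in Fayoumi, against 3.70, 4.90 and 6.88 in the others. It was 7.52-fold higher (adjusted p = 0.0206), with broiler averaging 4.54 and Leghorn 6.12 as labelled. That call was lost without any 1 of Fayoumi 2 to 5 (adjusted p 0.0578 to 0.0684). SCTR, the receptor for the gut hormone secretin, read 5.11, 5.45, 5.58, 3.90 and 5.64 in Fayoumi, against 2.29, 2.36 and 2.40 in the others, which were close to background. Its difference was 2.79 ± 0.20 (adjusted p = 7.29e-07).

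The others of these 8 genes were TRMT6, SHQ1, RPL27A and HAUS3. TRMT6, a subunit of a tRNA methyltransferase, read 5.04, 4.78, 5.20, 4.43 and 6.30 in Fayoumi, against 2.26 on each of the 12 others. All 12 were at background, which puts the Fayoumi level at least 7.25-fold higher (adjusted p = 3.56e-07). SHQ1, a chaperone for assembly of H/ACA small nucleolar ribonucleoproteins, read 6.57, 6.79, 6.40, 6.94 and 6.74 in Fayoumi, against 2.36, 4.22 and 4.46 in the others, a 7.04-fold difference (adjusted p = 0.000201). RPL27A, a protein of the large ribosomal subunit, read 6.71, 7.08, 6.60, 6.72 and 7.18 in Fayoumi, against 2.26, 4.69 and 4.82 in the others, 5.79-fold higher (adjusted p = 0.00188). HAUS3, part of the augmin complex of the mitotic spindle, read 6.73, 7.59, 6.96, 6.43 and 6.76 in Fayoumi, against 2.91, 4.11 and 5.87 in the others. It was 6.91-fold higher (adjusted p = 0.00425), and the 2 highest of the others, at 5.87 and 5.78, were broiler 6 and Leghorn 2.

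Among the genes lower in Fayoumi were a chaperone of the endoplasmic reticulum, a kinase-binding protein and an appetite peptide. CANX (calnexin), which folds glycoproteins in the endoplasmic reticulum, read 4.30, 4.01, 3.54, 2.87 and 5.16 in Fayoumi, against 9.33, 10.44 and 11.27 as lowest, median and highest of the others. No other Fayoumi-private probe set differed by more: -6.41 ± 0.35, an 85.1-fold lower level (adjusted p = 3.14e-08). GSKIP, which binds the kinase GSK3B and anchors protein kinase A, read 3.98, 3.56, 3.39, 4.14 and 2.76 in Fayoumi, against 7.68, 9.37 and 9.96 in the others, 45.4-fold lower (adjusted p = 1.27e-06). CMTM3, a membrane protein of the MARVEL family, read 2.26 on 4 Fayoumi arrays and 2.45 on Fayoumi 5, against 6.49, 7.31 and 8.13 in the others. Its Fayoumi values were at the floor of the table except on 1 array, so the difference of -5.03 ± 0.23 (adjusted p = 3.8e-09) carries no fold.

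NPY, neuropeptide Y, a peptide known for driving feeding and also released by sympathetic nerves, read 3.45, 3.40, 4.76, 4.51 and 4.26 in Fayoumi, against 5.78, 6.81 and 8.34 in the others. It was 6.84-fold lower (adjusted p = 0.00268), and this gene had no other probe set. PRTFDC1, which resembles HPRT1 of purine salvage, read 2.86, 2.60, 2.86, 3.76 and 2.86 in Fayoumi, against 5.71, 6.25 and 6.66 in the others (difference -3.24 ± 0.17, adjusted p = 2.42e-08). PWP1, a WD-repeat protein of ribosome production, read 2.36, 4.24, 2.26, 2.67 and 2.89 in Fayoumi, against 5.55, 5.81 and 6.75 in the others, 8.5-fold lower (adjusted p = 1.21e-05). Its value of 2.26 lay under background, so the fold rests in part on the floor. MAP1LC3C, an autophagy protein of the LC3 family, read 2.26, 2.88, 3.27, 2.27 and 3.31 in Fayoumi, against 4.79, 4.91 and 8.34 in the others, 6.64-fold lower (adjusted p = 0.014). Fayoumi 1 and Fayoumi 4 lay under background there, so this fold too rests in part on the floor. The MAP1LC3C call was lost without Fayoumi 1 or Fayoumi 4 (adjusted p 0.0529 and 0.0566). TMEM268, a transmembrane protein with 1 probe set, read 3.71, 3.48, 4.23, 4.32 and 4.01 in Fayoumi, against 5.67, 7.57 and 8.75 in the others. It was 12.9-fold lower (adjusted p = 7.8e-05), with broiler averaging 8.14 and Leghorn 7.14 as labelled.

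**Figure D1:**
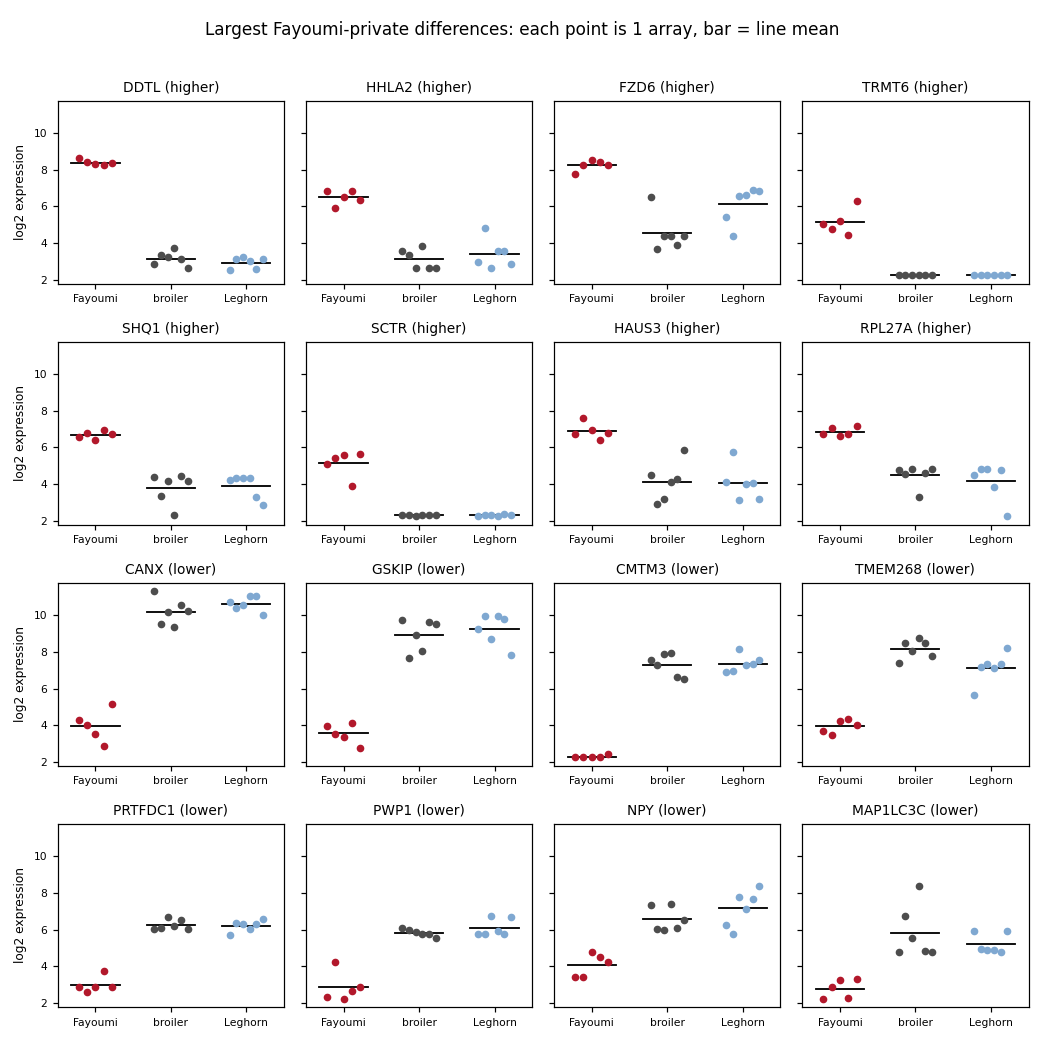
Log2 expression (vertical axis) of the 8 genes with the largest rise and the 8 with the largest fall in Fayoumi, among probe sets that were Fayoumi-private and passed the limma test. Each point is 1 array, the bar is the line mean, and Fayoumi stands left of broiler and Leghorn; in CANX the Fayoumi arrays sit between 2.87 and 5.16 and the 12 others between 9.33 and 11.27.

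The next question was whether a gene's other probe sets agree. Of the 193 genes whose largest Fayoumi-private difference passed limma's test, 47 had no other probe set and 4 had others at background on every array. In the 142 genes with another probe set above background on at least 1 array, a further probe set was Fayoumi-private in the same direction in 18 (12.7%). Counting a further probe set that limma called in the same direction as well raised this to 29 genes (20.4%), and in 11 genes every measured other probe set did so. In 6 genes another probe set was called or Fayoumi-private in the opposite direction. The 142 genes had 287 other measured probe sets, of which 20 were Fayoumi-private in the same direction (6.97%). Over all probe sets 1.33% were Fayoumi-private in either direction, an unlike base that includes the 25% above background on no array. Of the 287, 162 had the same sign without a call and 87 the opposite sign without a call. The median difference of the 287, turned to the direction of the chosen probe set, was 0.07. The chosen Fayoumi-private probe sets that were called had a median size of 1.27. Restricting the others to those above background on all 17 arrays left 17 of 125 genes.

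Several of the largest differences stood on 1 probe set while another of the same gene did not pass the test. The second DDTL probe set averaged 11.25 ± 0.07 in Fayoumi and 11.42 ± 0.50 in the others (adjusted p = 0.864). The second CANX probe set averaged 11.50 ± 0.14 in Fayoumi and 10.82 ± 0.63 in the others (adjusted p = 0.436), a difference of the opposite sign to the first. Both other CMTM3 probe sets had the opposite sign too, at 10.28 and 8.14 in Fayoumi against 10.08 and 7.62 in the others (adjusted p 0.832 and 0.615). For RPL27A the other probe set averaged 14.65 ± 0.07 in Fayoumi and 14.65 ± 0.21 in the others. For FZD6 the other probe sets differed by 0.40 and 0.06 and for TRMT6 by 1.0 (adjusted p = 0.399), with the same sign as the first. For PWP1 the other probe set differed by 0.15 with the opposite sign. None of these passed the test. HHLA2 behaved otherwise: its second probe set averaged 9.70 ± 0.29 in Fayoumi and 7.04 ± 1.30 in the others and passed the test with overlap (adjusted p = 0.0418).

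By size of the chosen difference, another Fayoumi-private probe set in the same direction was found in 4 of 29 genes at 2 or more, 10 of 62 between 1 and 2, and 4 of 51 under 1. No test was made between these shares. Probe sets whose names mark probes shared with other transcripts were 25% of the Fayoumi-private ones and 22.7% of all. Probe sequences and the genomes of these lines were not used here. A different amount of transcript and a different match of the transcript to the probes therefore cannot be told apart for a gene that rests on 1 probe set. Whether agreeing probe sets of a gene share probes or lie on neighbouring stretches was not tested, so the same limit holds there.

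**Figure D2:**
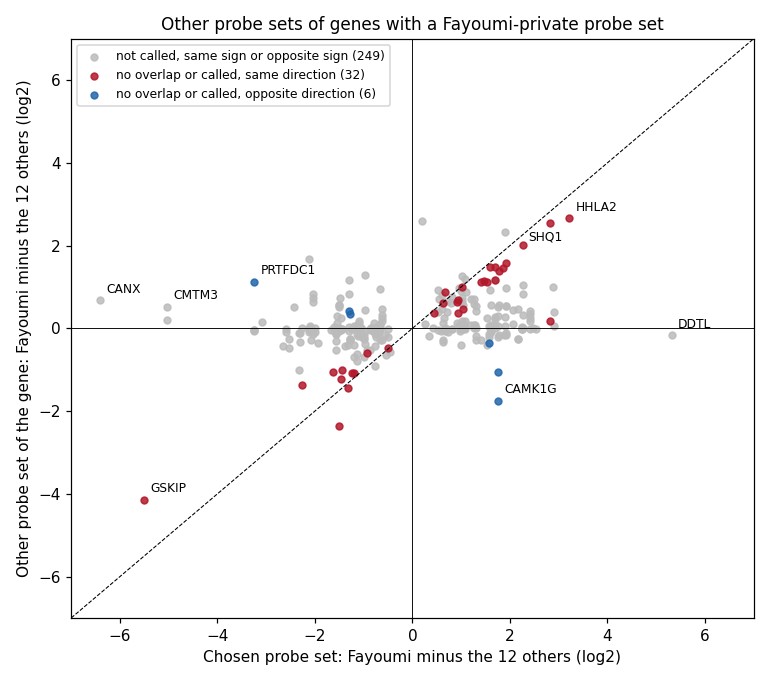
Fayoumi minus the 12 others (log2) for the chosen Fayoumi-private probe set of each gene (horizontal axis) and for each other measured probe set of that gene (vertical axis), 287 points in 142 genes. Points near the dashed line show equal differences; most lie near 0 on the vertical axis, GSKIP lies at -5.50 and -4.14, and DDTL and CANX show a large difference on 1 probe set only.

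The 18 genes with agreeing probe sets included 11 higher in Fayoumi. The second SHQ1 probe set read 5.06, 4.74, 5.05, 4.96 and 5.11 in Fayoumi, against 2.39, 2.41 and 2.54 as lowest, median and highest of the others. It was 5.89-fold higher with the smallest adjusted p among the named genes (4.51e-15). The 12 others lay close to background there with an SD of 0.04, and 6 of them had a tied value. Both the fold and the p therefore rest on values near the floor, where spread is compressed. The remaining SHQ1 probe set, also near background, passed too (2.45 in Fayoumi, 2.26 in the others, adjusted p = 0.0417). SNU13, a protein of box C/D small nucleolar and U4 spliceosomal particles, was 2.64-fold and 2.18-fold higher on 2 probe sets (adjusted p 0.00392 and 0.00168). Another of its probe sets averaged 10.51 in Fayoumi and 10.80 in the others and did not pass (adjusted p = 0.713). CDK5RAP2, a protein of the centrosome, averaged 5.59 and 5.0 in Fayoumi on 2 of its probe sets, against 3.66 and 3.41 in the others (adjusted p 0.00297 and 0.00371). A further one averaged 3.44 in Fayoumi and 2.47 in the others and did not pass (adjusted p = 0.19). CCNG1, the p53 target cyclin G1, averaged 12.97 and 14.03 in Fayoumi, against 11.45 and 12.91 in the others, 2.88-fold and 2.16-fold higher (adjusted p 0.0116 and 0.0217). The second CCNG1 call was lost without any 1 of Fayoumi 1 to 4 (adjusted p 0.0503 to 0.0768).

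FGD3, an exchange factor for the small GTPase CDC42, was 3.01-fold and 2.81-fold higher in Fayoumi (adjusted p 0.00989 and 0.00849), and its other measured probe sets differed by 0.92 and 0.02 without passing (adjusted p 0.302 and 0.662). TMEM131, a membrane protein of collagen secretion, was 3.24-fold and 2.79-fold higher (adjusted p 0.0174 and 0.0359). Another TMEM131 probe set was Fayoumi-private without passing (1.18, adjusted p = 0.0692), and 3 more differed by 0.02 to 0.23 (adjusted p 0.455 to 0.949). MAPRE2, a protein of growing microtubule ends, had 3 Fayoumi-private probe sets, which differed by 0.94, 0.69 and 0.37 (adjusted p 0.00236, 0.162 and 0.000256). RBM25, a splicing factor, differed by 2.28 and 2.02, and only the first passed (adjusted p 0.0365 and 0.167). Its 3 other probe sets differed by 0.33 to 1.06 and did not pass (adjusted p 0.396 to 0.694). IKBIP likewise differed by 1.85 and 1.47 (adjusted p 0.0376 and 0.249). The set was completed by CHMP1B of the ESCRT-III membrane machinery, 0.63 and 0.62 higher, and TIMM9, a chaperone of mitochondrial import, 0.45 and 0.37 higher, all 4 past the test. MYO5A, a cargo motor, had a pair of Fayoumi-private probe sets of which the smaller difference passed (1.05, adjusted p = 0.0184) and the larger did not (1.85, adjusted p = 0.116).

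Some of these calls lay close to the threshold and were lost with 1 array fewer at nearly the same difference. TMEM131 lost its first call without any 1 of Fayoumi 1 to 4 (difference 1.60 to 1.70, adjusted p 0.0516 to 0.0616), and its second without any 1 Fayoumi array, broiler 1 or 3, or Leghorn 3 or 6 (difference 1.43 to 1.55, adjusted p 0.0507 to 0.105). RBM25 lost its call without any 1 Fayoumi array, broiler 3 or 5, or Leghorn 3 or 6 (difference 2.18 to 2.33, adjusted p 0.0518 to 0.104). For IKBIP the same held of any 1 Fayoumi array, broiler 2, 3 or 6, and Leghorn 2 or 3 (difference 1.77 to 1.95, adjusted p 0.0527 to 0.126), and for MYO5A of Fayoumi 1, 2 or 4 (difference 1.0 to 1.06, adjusted p 0.0534 to 0.0697). SNU13, CDK5RAP2, FGD3, the SHQ1 probe sets with the 2 largest differences and the MAPRE2 probe set with the largest kept their calls whichever array was left out.

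The other 7 of the 18 genes were lower in Fayoumi. GSKIP had by far the deepest fall among them: its second probe set read 4.88, 5.20, 6.18, 6.08 and 5.75 in Fayoumi, against 8.68, 9.87 and 10.59 in the others, 17.6-fold lower (adjusted p = 1.21e-05). The nearest arrays of both groups were 3.53 log2 units apart on the first probe set and 2.50 on the second. TALDO1, transaldolase of the pentose phosphate pathway that feeds NADPH to fatty acid synthesis, read 11.28, 11.38, 11.36, 11.13 and 11.66 in Fayoumi on one probe set, against 12.08, 12.36 and 12.78 in the others. It was 2.02-fold lower there (adjusted p = 0.000106) and 2.74-fold lower on the second (adjusted p = 0.000234), while its 2 other measured probe sets were each above background on 1 array and did not pass. LRRC40 was 4.79-fold and 2.56-fold lower (adjusted p 1.41e-05 and 0.00719), and a further probe set near background did not pass (2.29 in Fayoumi, 2.28 in the others, adjusted p = 0.974). DUS2, which makes dihydrouridine in tRNA, was 2.77-fold and 2.33-fold lower (adjusted p 0.0103 and 0.00675). A further DUS2 probe set had the opposite sign and did not pass (6.60 in Fayoumi, 6.36 in the others, adjusted p = 0.84). TRIL, an accessory protein of Toll-like receptors, averaged 6.75 in Fayoumi and 8.38 in the others on one probe set and 2.38 in Fayoumi and 3.43 in the others on the second, both past the test (adjusted p 0.000178 and 0.0205). NSFL1C, a cofactor of the ATPase p97, differed by -1.23 and -1.08 (adjusted p 0.0233 and 0.0529), and by -0.01 on a further probe set (adjusted p = 0.981). MBTPS2, the site-2 protease that releases SREBP transcription factors, lay close to background in both groups, at 2.38 and 2.41 in Fayoumi and 3.32 and 3.00 in the others (adjusted p 0.0188 and 0.153). Outside the 18 genes, PODXL, a surface sialomucin, was Fayoumi-private on both measured probe sets, of which the smaller difference passed (-0.67, adjusted p = 0.0389) and the larger did not (-0.72, adjusted p = 0.0754). With 1 array fewer some of these calls were lost at nearly the same difference. NSFL1C lost its call without any 1 Fayoumi array (difference -1.27 to -1.19, adjusted p 0.0533 to 0.0813), as did the second TRIL probe set (-1.06 to -1.05, adjusted p 0.0571 to 0.0638). MBTPS2 lost its call without Fayoumi 1, 3, 4 or 5 (-0.95 to -0.91, adjusted p 0.054 to 0.0634), and PODXL without any 1 Fayoumi array, broiler 3, 4 or 5, or Leghorn 4 (-0.73 to -0.64, adjusted p 0.0543 to 0.127).

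**Figure D3:**
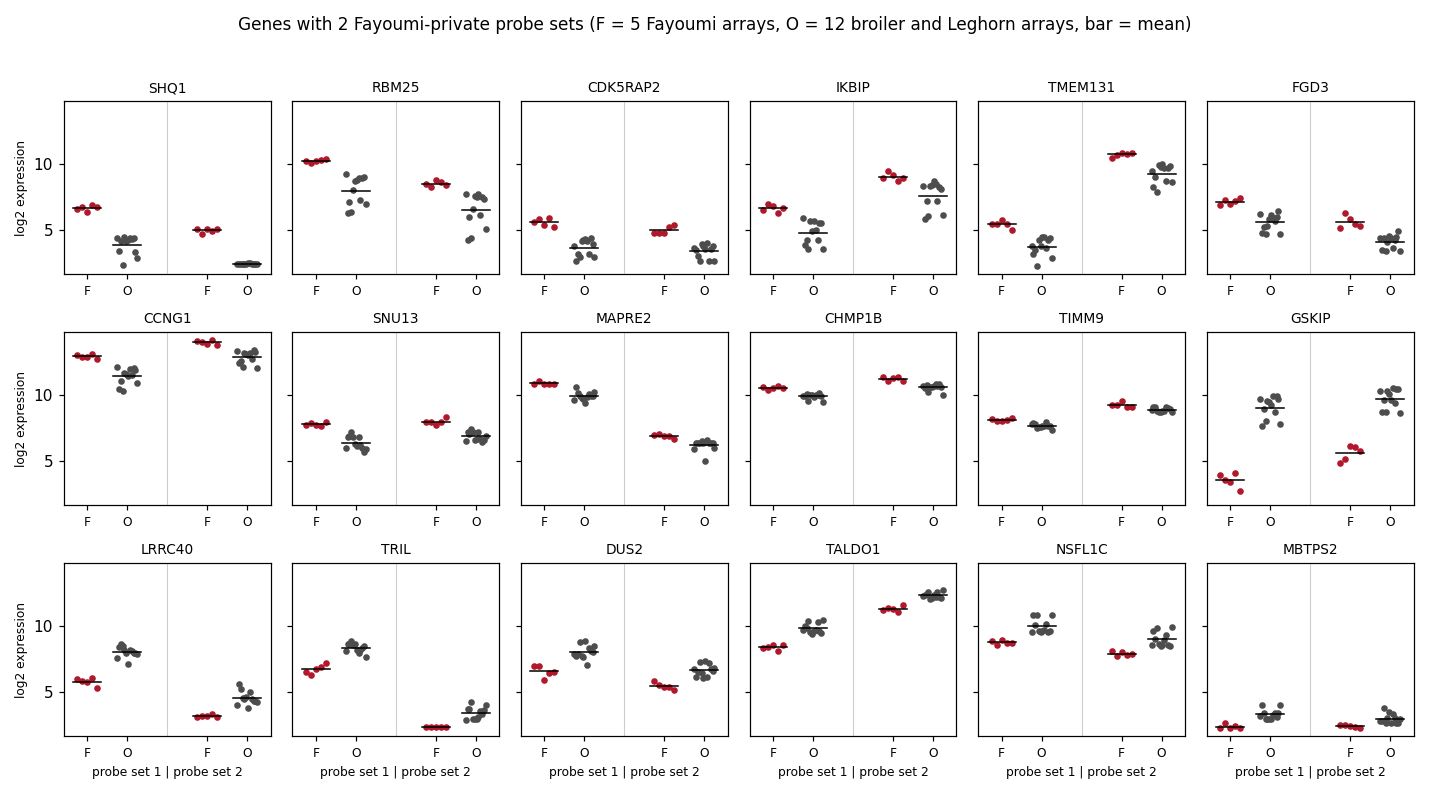
Log2 expression (vertical axis) in the 5 Fayoumi arrays (F) and the 12 broiler and Leghorn arrays (O) for the 18 genes with 2 or more Fayoumi-private probe sets of which the one with the largest difference passed the limma test. The 2 with the largest differences are drawn, the bar is the mean, and GSKIP separates by 3.53 and 2.50 log2 units between the nearest arrays.

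In a few genes the probe sets ran in opposite directions. CAMK1G, a calcium/calmodulin-dependent kinase, was higher in Fayoumi on 1 probe set (9.04 ± 0.39 in Fayoumi, 7.29 ± 0.81 in the others, adjusted p = 0.0357) and lower on another (8.07 ± 0.51 in Fayoumi, 9.81 ± 0.71 in the others, adjusted p = 0.0222). With broiler 2, 3 and 4 and Leghorn 3 and 6 left out, neither CAMK1G probe set passed (adjusted p 0.0774 and 0.055). PRTFDC1, lower on the probe set given above, was 2.17-fold higher on another (5.92 ± 0.20 in Fayoumi, 4.80 ± 0.41 in the others, adjusted p = 0.00777). SLC4A7, a sodium bicarbonate cotransporter, read 4.65, 4.24, 2.78, 3.99 and 4.61 in Fayoumi on a probe set that was at background on 11 of the others, a rise of 1.76 (adjusted p = 0.000337). A second SLC4A7 probe set averaged 5.20 in Fayoumi and 6.26 in the others, a difference of -1.06 (adjusted p = 0.0378). FBXO3, of a ubiquitin ligase, and ATP5J2, a subunit of ATP synthase, each had a called probe set (-1.30 and 1.58) and a dim one that was Fayoumi-private the other way without passing (0.42 and -0.36, adjusted p 0.0759 and 0.546). Of these calls, the higher one of CAMK1G was lost without any 1 Fayoumi array, broiler 1, 3 or 4, or Leghorn 3, 4 or 5 (adjusted p 0.0521 to 0.124), and the lower one without Fayoumi 1, 2, 4 or 5 (0.0541 to 0.0877). The second SLC4A7 call was lost without Fayoumi 2, 3, 4 or 5, broiler 1, 4 or 5, or Leghorn 2 or 3 (adjusted p 0.0564 to 0.129). The ATP5J2 call was lost without any 1 Fayoumi array, broiler 1 or 2, or Leghorn 2 (adjusted p 0.0509 to 0.126).

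Pathway lists were read with 1 probe set per gene, that with the highest mean over all arrays. Over the 13008 genes 178 passed limma's test (1.37%; 0.623% higher and 0.746% lower), 244 were Fayoumi-private (1.88%), and the median difference of the 11572 genes above background somewhere was -0.02. Of the factors for tRNA modification and small nucleolar particles, 1 of 23 rose (SHQ1) and none fell by limma's adjusted p, with 6 higher and 1 lower at an unadjusted p under 0.05. The list's median was 0.12. Over all 46 of its probe sets 6 were called higher, 3 from SHQ1, 2 from SNU13 and 1 from TRMT6, and 0 lower by limma. Over all chicken probe sets 0.531% were called higher. The list was chosen with earlier results of these data known and holds genes already named above, so this count adds no support. For TRMT6 the probe set read here averaged 4.92 in Fayoumi and 3.91 in the others and did not pass (adjusted p = 0.399). Of 25 measured Wnt receptors and antagonists 1 passed, SOST (higher), while 6 had a higher and 19 a lower sign (median -0.12). At limma's unadjusted p under 0.05, 2 were higher and 4 lower. Of 25 endoplasmic reticulum chaperones none passed, with 16 higher and 9 lower signs (median 0.12). At that level 5 were higher and 1 lower. The FZD6 and CANX probe sets given above were not those read in these lists.

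Lipid handling genes moved singly. VLDLR, the receptor that takes up triglyceride-rich lipoproteins, read 11.87, 11.96, 12.15, 12.20 and 12.07 in Fayoumi, against 10.36, 10.90 and 11.50 in the others, 2.2-fold higher (adjusted p = 0.00337). It was the only 1 of 24 genes of fatty acid uptake and triglyceride synthesis that passed, and the list's median was 0.04. In fatty acid synthesis and desaturation 2 of 19 genes fell, TALDO1 and the desaturase SCD5 (7.71 in Fayoumi, 9.03 in the others, adjusted p = 0.0122), and the median was 0.07. HADH, a dehydrogenase of mitochondrial fatty acid oxidation, was Fayoumi-private by a narrow margin at 11.91 ± 0.03 in Fayoumi and 12.20 ± 0.28 in the others. It did not pass with all arrays (adjusted p = 0.447). Leghorn 1 read 13.04 and the other Leghorn arrays 12.05 to 12.22, and without Leghorn 1 HADH passed limma's test (adjusted p = 0.0308). With all arrays no other gene of the 17 in that list passed either, with 2 lower and 0 higher at an unadjusted p under 0.05. PLIN2, a lipid droplet coat protein, averaged 9.13 in Fayoumi and 10.35 in the others without passing (adjusted p = 0.304).

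With 1 probe set per gene, branched-chain amino acid breakdown and redox defence each gave 1 call, both lower in Fayoumi. BCKDHB, of the branched-chain ketoacid dehydrogenase, read 8.77, 8.80, 9.04, 8.96 and 8.46 in Fayoumi, against a lowest of 9.31, a median of 10 and a highest of 10.28 in the others, 2.09-fold lower (adjusted p = 0.00236). It was the 1 of 20 genes of branched-chain amino acid catabolism that passed, and 15 of the 20 had a lower sign (median -0.26). SOD2, the mitochondrial superoxide dismutase, read 12.55, 12.46, 12.63, 12.57 and 12.44 in Fayoumi, against 12.83, 13.00 and 13.38 in the others. That is 1.42-fold lower (adjusted p = 0.0014), and it was the 1 of 33 glutathione and redox genes that passed. Over all 38 probe sets of the branched-chain list, limma called 2 lower and 0 higher. Over all 51 of the redox list it called 2 lower and 1 higher, the DDTL probe set given above.

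In the respiratory chain 25 of 28 genes had a lower sign in Fayoumi and the median was -0.37, against -0.02 over all genes and 41.6% of all genes with a higher sign. None of the 28 passed limma's adjusted test, whereas 18 were lower and 1 higher at an unadjusted p under 0.05, against 6.7% of all genes lower at that level. The list named 40 genes, of which these 28 were found on the array by symbol. ATP synthase genes were listed under other symbols than those of the array, such as ATP5O, so they can be missing through naming. Over all 51 probe sets of the list, limma called 1 lower (NDUFB8) and 0 higher. NDUFB9 of complex I (10.74 in Fayoumi, 11.58 in the others, adjusted p = 0.109) and SDHD of complex II (11.73 in Fayoumi, 12.21 in the others, adjusted p = 0.213) were Fayoumi-private. Without the 5 arrays that stood apart the list's median was -0.26. NDUFA5 ran the other way, at 9.71 in Fayoumi and 9.24 in the others (adjusted p = 0.051).

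**Figure D4:**
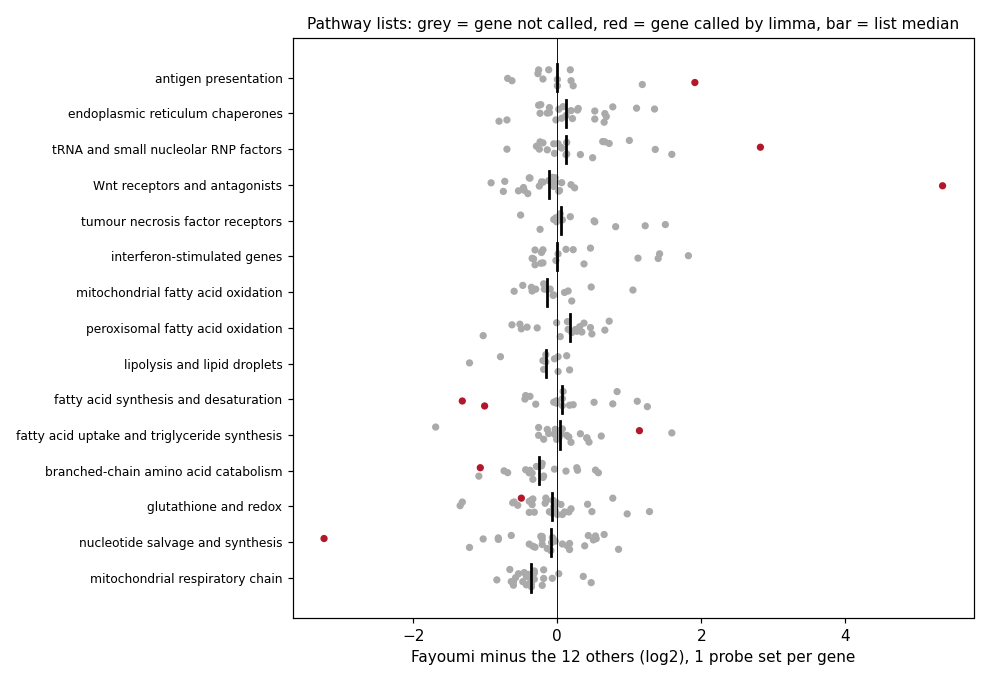
Fayoumi minus the 12 others (log2, horizontal axis) for genes of 15 pathway lists, 1 probe set per gene. Grey points did not pass and red points passed the limma test, and the bar is the list's median; the respiratory chain has the lowest median (-0.37), and the red point at 5.35 is SOST.

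Immune and cell type genes gave single calls. BF2, a class I molecule of the chicken major histocompatibility complex, read 12.23, 12.28, 12.35, 12.25 and 12.54 in Fayoumi, against 9.10, 10.40 and 12.05 in the others, 3.76-fold higher (adjusted p = 0.0467). Its probe set is of the kind that can bind similar transcripts, and class I genes have near-identical copies, so the value is uncertain as a measure of BF2 alone. The 3 other measured BF2 probe sets had the same sign and did not pass. The BF2 call was lost without any 1 Fayoumi or broiler array or Leghorn 2, 4 or 5 (adjusted p 0.057 to 0.132), and without broiler 1 and Leghorn 2 together (0.0819). TIMD4, a phosphatidylserine receptor of macrophages, averaged 6.51 in Fayoumi and 5.21 in the others (adjusted p = 0.04), and it was the 1 of 14 macrophage markers that passed. Its other measured probe set had the same sign and did not pass. The TIMD4 call was lost without Fayoumi 1, 2, 3 or 5, broiler 3, 5 or 6, or Leghorn 2 or 6 (adjusted p 0.0503 to 0.151). MARCO, a macrophage scavenger receptor, was Fayoumi-private on the low side at 3.05 in Fayoumi and 4.91 in the others and did not pass (adjusted p = 0.185). The summed macrophage level ran from 15.71 to 15.93 in Fayoumi and from 15.30 to 16.18 in the others.

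Markers of the cell types in the tissue gave few calls. ADIPOQ, the adipocyte hormone adiponectin, averaged 11.68 ± 0.22 in Fayoumi and 12.73 ± 0.50 in the others, a difference of -1.05 with overlapping arrays (adjusted p = 0.0416). Without broiler 2, 3 and 4 and Leghorn 3 and 6 its adjusted p was 0.186, and it lost the call without any 1 Fayoumi array, broiler 2 to 6 or Leghorn 2 to 6 (0.0509 to 0.136). ADIPOQ was the 1 of 16 adipocyte markers that passed, and their summed level was 17.71 to 17.89 in Fayoumi and 17.23 to 17.95 in the others. The endothelial regulator LMO2 fell with overlap (9.49 in Fayoumi, 10.41 in the others, adjusted p = 0.0199), and the progenitor marker PDGFRA rose with overlap (3.97 in Fayoumi, 2.93 in the others, adjusted p = 0.0189). Of the 15 measured endothelial markers 8 had a higher and 7 a lower sign (median 0.09), and LMO2 alone passed. Of the 13 measured progenitor markers 7 had a higher and 6 a lower sign (median 0.01), and PDGFRA alone passed. LMO2 did not pass without Fayoumi 1, 2 or 4 (adjusted p 0.0504 to 0.0801), nor PDGFRA without Fayoumi 1 (0.0632). Skeletal muscle markers had a median of 1.0 with 1 probe set per gene and -0.27 over all their probe sets. With all arrays 0 of 19 passed limma's adjusted test or an unadjusted p under 0.05. In the muscle gene TNNC1, Leghorn 1 read 14.08 and the other Leghorn arrays 5.13 to 7.64. Without Leghorn 1 TNNC1 passed limma's test (adjusted p = 0.00733, with all arrays 0.606). The summed level of the muscle markers was 12.80 to 14.46 in Fayoumi and 12.34 to 18.47 in the others, and the part of muscle RNA in the results was not tested. Of the 13 T cell markers on the array 12 were above background on at least 1 array, and LCK was not. Of the 8 B cell markers 7 were above background on at least 1 array, and BANK1 was not. No marker of either list passed limma's adjusted test.

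SOST, the secreted Wnt antagonist sclerostin, fell just outside the rule. It read 10.93, 9.56, 9.44, 10.90 and 10.07 in Fayoumi, against 2.31, 3.57 and 9.55 as lowest, median and highest of the others. The highest was broiler 3, followed by broiler 4 at 9.23, so that broiler averaged 6.44 and Leghorn 3.22 as labelled. The difference of 5.35 ± 1.17 passed the test with overlap (adjusted p = 0.038). It did not pass without any 1 Fayoumi array, broiler 1 or 2, or Leghorn 2 to 6 (adjusted p 0.0551 to 0.123), and it passed without broiler 3 (0.0109) or broiler 4 (0.0129).

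Of the 12871 genes placed on the RefSeq gene table of chicken, 195 had a called Fayoumi-private probe set, and 10 of the 195 stood directly beside another one; how many neighbours chance would give was not tested. These made 5 pairs. NPTX2 with TMEM130, and LRP2 with ABCB11, were higher in Fayoumi on the Fayoumi-private probe set of each gene. NPTX2, a synaptic pentraxin, averaged 11.38 in Fayoumi and 9.61 in the others (adjusted p = 0.000256), while TMEM130 averaged 2.89 in Fayoumi and 2.60 in the others (adjusted p = 0.00311). LRP2, the endocytic receptor megalin, averaged 4.96 in Fayoumi and 2.71 in the others (adjusted p = 4.54e-06). None of the 6 other measured LRP2 probe sets passed limma's test: each was above background on at most 4 arrays, and 4 of the 6 had the opposite sign. ABCB11, a bile salt pump, averaged 4.35 in Fayoumi and 3.05 in the others (adjusted p = 0.00379). The other 3 pairs were GATC with TRIAP1, MTERF3 with PTDSS1, and AHCY with ITCH, in each of which the Fayoumi-private probe set of the first was lower and that of the second higher in Fayoumi.

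The same rule can be put to each line. As labelled, 503 probe sets were private to Fayoumi, against 0 to broiler and 2 to Leghorn. With broiler 1 and Leghorn 2 left out, so that each line had 5 arrays, the counts were 665 for Fayoumi (1.76%), 417 for broiler (1.11%) and 330 for Leghorn (0.875%). Those that left at least 1 log2 unit between the nearest arrays numbered 43 for Fayoumi, 41 for broiler and 46 for Leghorn. Broiler 1 and Leghorn 2 were picked by their place on the second principal component of these same values. That choice favours probe sets private to broiler or Leghorn. Broiler 2, 3 and 4 and Leghorn 3 and 6, which stood apart, stayed in. With those 5 left out instead, the counts were 1029 for Fayoumi (2.73%), 120 for broiler (0.318%) and 134 for Leghorn (0.356%). Those that left at least 1 log2 unit numbered 59, 0 and 0. There broiler had 3 arrays and Leghorn 4, with broiler 1 and Leghorn 2 kept as labelled. Leaving out both sets of arrays together was not tested. The counts therefore do not rank the lines.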

How the data were processed

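The authors deposited log2 expression values for 17 arrays. Per the submitters' processing notes R 2.13.2, RMA and GCRMA were used (which one gave the deposited values is not given in the sources used here). Of 38535 probe sets, 37693 chicken ones were tested; controls, reporters and accession-named probe sets were left out. Gene symbols came from the platform annotation (27166 probe sets with 1 symbol, 177 with several, 10350 with none), of which 26851 were found by gene number in the RefSeq gene table of assembly GRCg7b, used for names and gene order alone. Each array had 56% to 59.1% of these above background, and 36.1% of the values were at the lowest value, which compresses differences there. The number of arrays limits the precision.

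Fayoumi was compared with the 12 other arrays in a model with 2 groups, in limma 3.58.1 under R 4.3.3 (lmFit and eBayes, two-sided, Benjamini-Hochberg over all 37693 probe sets, threshold 0.05). The script was tested on simulated data. Folds are 2 raised to the log2 difference. None is given where most arrays of the lower group were at background or tied within 0.001, except as a bound where all of it was at background. Alternatives included other normalization, variance models, filters, a 3-line fit, a replicate block and leaving out each array.

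Genes were named as the 8 largest differences per direction among called Fayoumi-private probe sets, up to 10 per direction with 2 such probe sets, those with opposite probe sets, the member of each list with the smallest adjusted p, and ADIPOQ, FABP4 and PLIN1. Genes named outside this rule, such as GGH, SMAP2, CHMP1B, TIMM9, SCD5, MARCO, NDUFB9, SDHD and the neighbouring pairs, were chosen after their values were seen. Members and gene lists were chosen with earlier results of these data known. No probe sequence was used here.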

Additional observations from a re-analysis of the deposited data

Results flagged for a closer look

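Within a line, 29 values of the named probe sets lay far from the rest by Dixon's ratio, in 249 groups looked at. Chance alone flags about 1 in 20 groups of normally distributed values. That rate does not hold near the floor, where small steps are flagged, as for ERO1B (Leghorn 1 at 2.29, the other Leghorn arrays 2.26 to 2.27). Only 6 of the 29 values were on Fayoumi arrays. Fayoumi 4 was high in PRTFDC1 (3.76, the other Fayoumi arrays 2.60 to 2.86) and in the dimmer LRRC40 probe set (3.38). Fayoumi 5 was the one Fayoumi array above background in CMTM3 (2.45). Fayoumi 2 was high in MAPRE2 (11.08), Fayoumi 3 high in the second FBXO3 probe set (3.39), and Fayoumi 1 low in the second TRIL probe set (2.38), where all 5 arrays agree to the second decimal.

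Leghorn 1 held 9 of the values: it was high in TNNC1, the slow muscle troponin C (14.08, the other Leghorn arrays 5.13 to 7.64), HADH (13.04), SOD2 (13.38), ATP5J2 (3.84), SLC4A7 (2.67) and ERO1B (2.29), and low in PLIN1 (12.65), LRRC40 (7.16) and MAPRE2 (4.98). Leghorn 2 was high in SOST (5.15), HAUS3 (5.78) and CRAT (4.52). Leghorn 6 was high in both PODXL probe sets (11.05 and 10.81) and low in CD28 (2.52). Broiler 1 was high in FZD6 (6.49, the other broiler arrays 3.70 to 4.37) and SHQ1 (2.44) and low in BCKDHB (9.53) and MAPRE2 (5.91). Flags on broiler 1 and Leghorn 2 depend on their labels, since both lay among the other line's scores on the second principal component. Broiler 2 was high in TAGLN (11.55), broiler 3 low in SCTR (2.30), and broiler 4 high in DUS2 (8.78) and low in RPL27A (3.33).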

How the results depend on the processing

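Against 394 probe sets called by limma with all arrays, 1536 were called with array weights and 618 without broiler 2, 3 and 4 and Leghorn 3 and 6. With a replicate block the count was 208. Same-numbered arrays of Fayoumi and another line correlated between -0.172 and 0.236 over 10 pairs. Over all 16 same-numbered pairs, those of broiler with Leghorn included, the range was -0.794 to 0.6. Whether the numbers pair the samples cannot be read from these correlations. Leaving out single arrays gave 235 to 486 calls, the fewest without Fayoumi 4 and the most without Leghorn 1. A filter on arrays above background gave 576 of the 21177 probe sets it left to test, where the other settings tested 37693. A term for the 5 arrays that stood apart gave 473, the 3-line fit 380, quantile normalization 398 and the fit without broiler 1 and Leghorn 2 337. Of the Fayoumi-private probe sets, 92 cleared the others by at least 0.5 and 39 by at least 1. There were 1029 without the 5 arrays that stood apart, and 514 to 680 with 1 array left out. Having fewer arrays to clear cannot lower this count, and what else added to the rise was not tested. The 18 of 142 genes with agreeing probe sets became 50 of 271 without the 5 arrays, 20 of 138 without broiler 1 and Leghorn 2, and 25 of 174 without Leghorn 1. These 3 settings were chosen after seeing the data. For the array weights and the block the cause was not tested.

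Of 59 called probe sets among those named, 33 kept their call under all 26 alternatives, 26 lost it under at least 1, and 0 changed sign. Some named probe sets gained a call. Without Leghorn 1 these included NDUFA5 (adjusted p = 0.0136), HADH (0.0308), TNNC1 (0.00733) and the MAPRE2 probe set that differed by 0.69 (0.00863). The block ended 23 of the 59 calls, among them those of FGD3 (adjusted p 0.0838 and 0.0926), CCNG1 (0.104 and 0.14) and FZD6 (0.117). Leaving out the 5 arrays that stood apart ended 8, among them DUS2 on one probe set (0.0605), LMO2 (0.0624) and PDGFRA (0.0908). The skeletal muscle list had a median of 0.30 once the 5 outlying arrays were set aside. At 36.1% of the values, those at the table's lowest level, no order can be read.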

Other observations

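Several Fayoumi-private genes outside the naming rule, chosen after their values were seen, are given here singly. SLC16A10, a transporter of aromatic amino acids, read 10.63, 10.77, 10.96, 10.87 and 10.33 in Fayoumi, against 7.39, 8.41 and 8.97 as lowest, median and highest of the others (5.3-fold higher, adjusted p = 4.34e-05), while its other measured probe sets did not pass. ACSL6, which activates long-chain fatty acids, averaged 6.99 ± 0.51 in Fayoumi and 4.51 ± 0.83 in the others (adjusted p = 0.00435). The 1 other measured ACSL6 probe set had the opposite sign and did not pass. STK4, a kinase of the Hippo pathway, averaged 8.61 in Fayoumi and 6.84 in the others (adjusted p = 0.000347), and its second probe set 8.20 in Fayoumi and 8.35 in the others (adjusted p = 0.864). SAT1, which acetylates polyamines for breakdown, read 11.97, 11.94, 12.14, 12.18 and 12.28 in Fayoumi, against 13.78, 14.09 and 14.47 in the others, 3.98-fold lower (adjusted p = 2.16e-09). Another SAT1 probe set averaged 12.39 in Fayoumi and 12.47 in the others (adjusted p = 0.865). EGFL6, a secreted protein with EGF repeats, averaged 7.79 ± 0.18 in Fayoumi and 10.44 ± 0.74 in the others, 6.31-fold lower (adjusted p = 0.000465), on its only probe set. CPQ, a secreted carboxypeptidase, averaged 6.70 ± 0.05 in Fayoumi and 9.20 ± 0.52 in the others (adjusted p = 2.15e-05), also on its only one.

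Of complex I, 3 subunits picked after their values were seen had a called Fayoumi-private probe set, all lower. Being picked, they say nothing of the complex as a whole. NDUFB4 and NDUFB7 were not on the respiratory chain list, and the called NDUFB8 probe set was not the one read there. In that list, which covers other complexes too, 0 of 28 genes passed limma's adjusted test. At an unadjusted p under 0.05, 18 of them were lower and 1 higher. NDUFB4 read 5.84, 6.36, 6.74, 6.28 and 5.71 in Fayoumi, against 8.08, 8.85 and 9.39 in the others (6.28-fold lower, adjusted p = 5.64e-06), with a second probe set at 10.03 in Fayoumi and 10.45 in the others (adjusted p = 0.429). NDUFB8 averaged 7.65 in Fayoumi and 9.02 in the others (adjusted p = 0.00676) and 11.98 in Fayoumi and 12.41 in the others on a second probe set (adjusted p = 0.438). NDUFB7 averaged 9.20 in Fayoumi and 10.27 in the others (adjusted p = 0.0148). COX7A2L, which helps join respiratory complexes, averaged 10.79 ± 0.05 in Fayoumi and 11.28 ± 0.15 in the others (adjusted p = 0.0017). Of the 268 called Fayoumi-private probe sets, 58 had no single gene symbol and are not named here.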
